A study of Mus musculus with 6 samples.

Results

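The alpha- and beta-tubulin isotypes are the genes whose protein products pair into the subunit of microtubules. Their mRNA levels were followed in 4T1 cells, a mouse mammary adenocarcinoma line that carried a short hairpin RNA against HSF1 (shHSF1, 3 libraries) or a control hairpin (shCTL, 3 libraries). HSF1 is the transcription factor of the heat shock response, and both groups were cultured alike, in DMEM with serum. The hairpin sequences, the number of hairpins and whether a line came from 1 clone are not given in the labels. The 10 members were chosen by name, with their levels in shHSF1 against shCTL libraries already known. They are 4 alpha genes (Tuba1a, Tuba1b, Tuba1c and Tuba4a) and 6 beta genes (Tubb2a, Tubb2b, Tubb3, Tubb4b, Tubb5 and Tubb6), of 24421 genes in the table. Since this contrast selected them, their differences are given as a description, with standard errors and no test. A further 7 alpha- and beta-tubulin genes of the table were no members, and held between 0.0555% and 0.352% of the summed level of all 17.

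Microtubules are polymers of alpha/beta-tubulin dimers that form the mitotic spindle, the tracks of intracellular transport and the core of cilia. Mammals encode each subunit in several genes, whose proteins differ mainly in their acidic C-terminal tails, where many tubulin modifications and associated proteins act. Cells also adjust tubulin mRNA to free dimers: the first residues of a nascent tubulin chain are recognised by TTC5, which recruits the CCR4-NOT deadenylase to the translated mRNA.

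Libraries held 24485872, 36903175 and 28658163 reads assigned to genes for shHSF1 replicates 1 to 3, and 24628758, 23750025 and 27156162 for shCTL replicates 1 to 3. At these depths 3 reads on a gene of 2 kb correspond to between 0.0406 and 0.0632 RPKM (reads scaled to gene length and library size), a floor that covers counting error only. Hsf1 itself had 23.2, 13.8 and 15.4 RPKM in the shHSF1 libraries, against 18.4, 20.3 and 20.1 RPKM in the shCTL libraries. The library labelled shHSF1 replicate 1 thus had more Hsf1 mRNA than any shCTL library, while shHSF1 replicates 2 and 3 had less. Both replicate 1 libraries also stood apart from the other 4 over all genes: the first principal component, with 53.8% of the variance, placed them at −38.5 (shHSF1) and −47.0 (shCTL), against 13.4 to 30.7 for the others. Differences of the members are therefore also given with replicate 1 of both groups left out. Of 11 epithelial markers, 8 reached 0.5 RPKM, with sums of 1603 to 1925 RPKM in shHSF1 and 2041 to 2668 RPKM in shCTL libraries, and Krt5 was at 0. Krt8 and Krt18 made up most of these sums and were lower in shHSF1 without overlap. Epcam averaged 32.5 ± 3.87 RPKM in shHSF1 and 13.7 ± 0.987 RPKM in shCTL (SD, n = 3 each), higher without overlap. With overlap, the means of Krt7, Krt19 and Cldn4 were higher in shHSF1 and those of Cdh1 and Krt14 lower. The ratios of shHSF1 to shCTL for replicates 1, 2 and 3 were 2.46, 0.963 and 0.939 for Krt7. They were 2.26, 0.833 and 0.875 for Cldn4, and 1.61, 0.458 and 0.555 for Cdh1. Of 11 neuronal markers, Map2 alone reached 0.5 RPKM, with list sums of 9.24 to 10.0 RPKM in shHSF1 and 12.5 to 20.0 RPKM in shCTL libraries, and Snap25, Syt1, Elavl4 and Stmn2 were at 0. Of 10 immune markers Cd68 and Lyz2 reached that level (sums of 13.3 to 23.3 RPKM in shHSF1 and 3.94 to 19.5 RPKM in shCTL), and of 8 fibroblast markers Pdgfra and Pdgfrb (sums of 15.7 to 22.8 RPKM in shHSF1 and 10.0 to 37.6 RPKM in shCTL), with Cd3g, Cd8a, Col3a1, Lum and Thy1 among those at 0. Lyz2 had 0.0386, 0.795 and 1.02 RPKM in the shHSF1 libraries and 0 in every shCTL library. Cd68 overlapped, with ratios of shHSF1 to shCTL of 1.19, 3.22 and 3.22 for replicates 1, 2 and 3. The part of the marker levels in the values given here was not tested, and in bulk samples fewer cells of a type and less RNA per cell cannot be told apart.

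Tubb2a and Tubb2b, the genes on which the results turn, are near copies, so the sequence by which reads can tell them apart matters. The last 60 bases of each coding sequence, up to and including the stop codon, encode the C-terminal tail. They are shown 5′ to 3′ for both genes and for the 2 most abundant beta isotypes, from GENCODE M21 transcripts. Capitals mark bases that differ from Tubb2a in the alignment.
Tubb2a: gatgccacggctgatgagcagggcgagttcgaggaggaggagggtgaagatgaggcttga
Tubb2b: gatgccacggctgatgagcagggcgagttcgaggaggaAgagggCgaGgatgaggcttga
Tubb5: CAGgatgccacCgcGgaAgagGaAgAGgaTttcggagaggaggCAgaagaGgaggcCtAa
Tubb4b: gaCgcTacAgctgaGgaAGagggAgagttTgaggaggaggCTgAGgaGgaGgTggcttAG
Tubb2b differed from Tubb2a at 3 of these 60 bases, against 16 marked bases in Tubb5 and 17 in Tubb4b. Over the whole coding sequence Tubb2a and Tubb2b were 96.5% identical, with 47 differing positions, and their proteins 99.6% identical, with 2 differing residues. Of all 50-base windows of the Tubb2a transcript, 45.6% also occurred in Tubb2b and 50.4% occurred in no other gene. Of the Tubb2b windows, 33.4% also occurred in Tubb2a and 60.7% in no other gene. The sources used here do not say how reads shared between genes were counted, so part of either gene's reads could stem from the other.

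The promoter of Tubb2a is shown because HSF1, the target of the hairpin, is a DNA-binding factor. The 250 bases before the gene's start are given from RefSeq (GRCm38.p6, chr13:34078009-34078258, minus strand), 5′ to 3′ in the direction of transcription. Capitals mark TGACGTCA, the palindromic cAMP response element, at −59 to −52 from the start, and TATAAA, the core promoter box that TBP binds, at −29 to −24.
Tubb2a promoter: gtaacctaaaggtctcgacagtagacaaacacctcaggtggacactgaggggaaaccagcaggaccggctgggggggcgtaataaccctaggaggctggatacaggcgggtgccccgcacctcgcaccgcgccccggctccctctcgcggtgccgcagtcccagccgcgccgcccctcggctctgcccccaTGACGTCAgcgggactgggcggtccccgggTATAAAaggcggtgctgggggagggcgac
Windows of the 250 bases before the start were searched on both strands for 8 of the 10 members, which had an entry. Tubb2b and Tubb6 had none. TGACGTCA occurred in 1.55% and TATAAA in 12.4% of 32851 RefSeq promoters, and among the 8 members in Tubb2a alone. Pairs of heat shock units, GAANNTTC and TTCNNGAA, occurred in 6.69% and 7.17% of promoters; the first was in none of the 8 windows and the second in those of Tuba1c and Tubb5. A run of 3 alternating heat shock units occurred in 0.466% of promoters and in none of the 8 windows. A match is a description of the letters and no evidence of binding, and a missing match says only that the letters are not in the window.

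Tubb2a and Tubb2b were higher in every shHSF1 library than in any shCTL library, and the levels of the other 8 members overlapped. Tubb2a, a beta isotype enriched in neurons, had 18.6, 26.9 and 26.2 RPKM in the shHSF1 libraries, against 4.53, 9.10 and 7.20 RPKM in the shCTL libraries. All shHSF1 values lay above all shCTL values. Mean levels were 23.9 ± 4.58 RPKM in shHSF1 and 6.95 ± 2.30 RPKM in shCTL (SD, n = 3 each), a 3.44-fold ratio of means. The difference on the log2(RPKM + 0.5) scale, shHSF1 minus shCTL, was 1.74 (SE 0.28).

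Tubb2b, a beta isotype of developing neurons whose human counterpart is mutated in cortical malformations, had 3.82, 7.87 and 8.66 RPKM in the shHSF1 libraries, against 0.296, 0.416 and 0.383 RPKM in the shCTL libraries. These levels rest on 180, 558 and 477 reads in shHSF1 and on 14, 19 and 20 reads in shCTL libraries. The groups were far apart, and no shCTL library reached 0.5 RPKM. Means were 6.78 ± 2.59 RPKM in shHSF1 and 0.365 ± 0.0623 RPKM in shCTL (SD, n = 3 each), an 18.6-fold ratio of means. The log2 difference was 3.0 (SE 0.32), a value that the pseudocount of 0.5 RPKM holds down. Tubb2b passed the filter on low values only through the shHSF1 group.

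Since the groups did not overlap, both genes were higher in each same-numbered pair of libraries, as they would be in any other pairing. For Tubb2a the log2 differences were 1.93, 1.51 and 1.79 for replicates 1, 2 and 3, and for Tubb2b they were 2.44, 3.19 and 3.37. With replicate 1 of both groups left out, Tubb2a differed by 1.65 (SE 0.13) and Tubb2b by 3.28 (SE 0.14). The library labelled shHSF1 replicate 1, in which Hsf1 mRNA was not lowered, also showed the higher level of both genes.

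**Figure D1:**
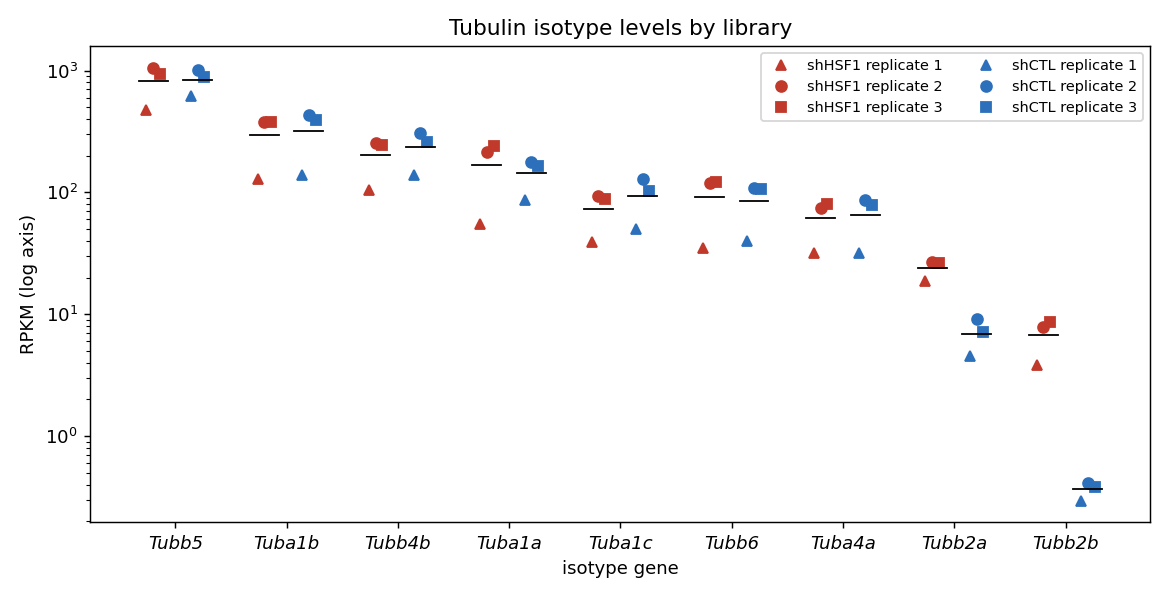
Level of 9 tubulin isotype genes in each library, in RPKM on a log axis, with shHSF1 libraries left of shCTL libraries; marker shapes give the replicate number and black lines the group mean of 3 libraries. Tubb2a and Tubb2b are higher in all shHSF1 libraries, replicate 1 is the lowest library of its group for every gene shown, and Tubb3 (at most 0.0237 RPKM) is left out.

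Across all genes the comparison of shHSF1 with shCTL called few genes, and the count depended on replicate 1. limma, a linear model per gene with moderated variance, called 3 of 11386 genes at a Benjamini-Hochberg adjusted p of 0.05 (0.0263%), namely Cd74, Ly6e and Cadps2, and none of the 9 members tested (1296 genes had an unadjusted p under 0.05). With the replicate number as a block it called 0.176% of genes, among them Tubb2a and Tubb2b, and without both replicate 1 libraries 11.1%, again with both. Groups did not overlap, with shHSF1 higher, for 12.9% of genes and for the same pair of members. They did not overlap, with shHSF1 lower, for 7.16% of genes and for 0 of 9 members. The members were chosen on this contrast, so nothing is read from these counts. The median log2 difference was −0.06 over the 9 members tested, of which 5 lay below 0, and 0.05 over all 11386 genes.

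The major isotypes showed no separation of the groups over all 6 libraries. Tubb5, the main beta isotype of most dividing cells, had 476, 1057 and 941 RPKM in shHSF1 libraries, against 613, 1006 and 884 RPKM in shCTL libraries. It was the most abundant isotype in all 6 libraries, with a log2 difference of −0.07 (SE 0.35). That sign came from the replicate 1 pair: the pairs differed by −0.36, 0.07 and 0.09, and without replicate 1 of both groups the difference was 0.08 (SE 0.11). Tubb4b, a broadly expressed beta isotype that is also a component of cilia, had 105, 253 and 245 RPKM in shHSF1 and 138, 308 and 257 RPKM in shCTL libraries. Its level was lower in shHSF1 in each same-numbered pair (log2 differences of −0.39, −0.28 and −0.07), while the groups overlapped. Leaving out replicate 1 of both groups gave −0.18 (SE 0.11). Tubb6, a beta isotype of many non-neuronal tissues, averaged 91.4 ± 49.1 RPKM in shHSF1 and 85.2 ± 39.3 RPKM in shCTL (SD, n = 3 each). Its pairs differed by −0.20, 0.12 and 0.18, and the difference without replicate 1 of both groups was 0.15 (SE 0.08).

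Among the alpha isotypes Tuba1b, the main alpha gene of dividing cells, had 129, 376 and 381 RPKM in shHSF1 libraries, against 138, 431 and 391 RPKM in shCTL libraries. Its groups overlapped, and the log2 difference was −0.11 (SE 0.58), or −0.12 (SE 0.09) without replicate 1 of both groups. Tuba1a, an alpha gene known for its role in migrating neurons, had 55.4, 213 and 239 RPKM in shHSF1 and 86.9, 178 and 165 RPKM in shCTL libraries. It was lower in shHSF1 in the replicate 1 pair and higher in the replicate 2 and 3 pairs, with log2 differences of −0.65, 0.26 and 0.53. Its overall log2 difference of 0.05 and that of Tubb6, 0.03, turned to −0.01 and −0.03 under median-of-ratios scaling. With replicate 1 of both groups left out, the Tuba1a difference was 0.40 (SE 0.10). The remaining shHSF1 libraries lay above both shCTL libraries for Tuba1a and Tubb6, and below both for Tuba1b, Tuba1c and Tubb4b. How many of all genes separate in this way was not counted, so nothing is read from it. Tuba1c, a further widely expressed alpha gene, was lower in shHSF1 in each pair (log2 differences of −0.34, −0.45 and −0.23), with means of 73.6 ± 29.9 RPKM in shHSF1 and 93.7 ± 40.1 RPKM in shCTL (SD, n = 3 each). Its difference was −0.34 with all 6 libraries (SE 0.46) and with 4 (SE 0.13). Tuba4a, the alpha gene that does not encode the C-terminal tyrosine, averaged 62.2 ± 26.6 RPKM in shHSF1 and 65.7 ± 29.6 RPKM in shCTL libraries, with a difference of −0.06 (SE 0.50), or −0.09 (SE 0.10) without replicate 1 of both groups. Shared sequence limits the alpha values too: 52.0%, 64.6% and 59.8% of the 50-base windows of Tuba1a, Tuba1b and Tuba1c occurred in another member, so reads may be split between them. Counting any other gene, 72.9%, 73.8% and 61.0% of their windows were shared.

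Tubb3, the neuronal beta isotype detected by the antibody Tuj1, was at or near 0: 1 read in shHSF1 replicate 1 (0.0237 RPKM), 1 read in shCTL replicate 3 (0.0214 RPKM) and 0 reads in the other 4 libraries. It was not tested, and no difference was detectable at this depth.

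**Figure D2:**
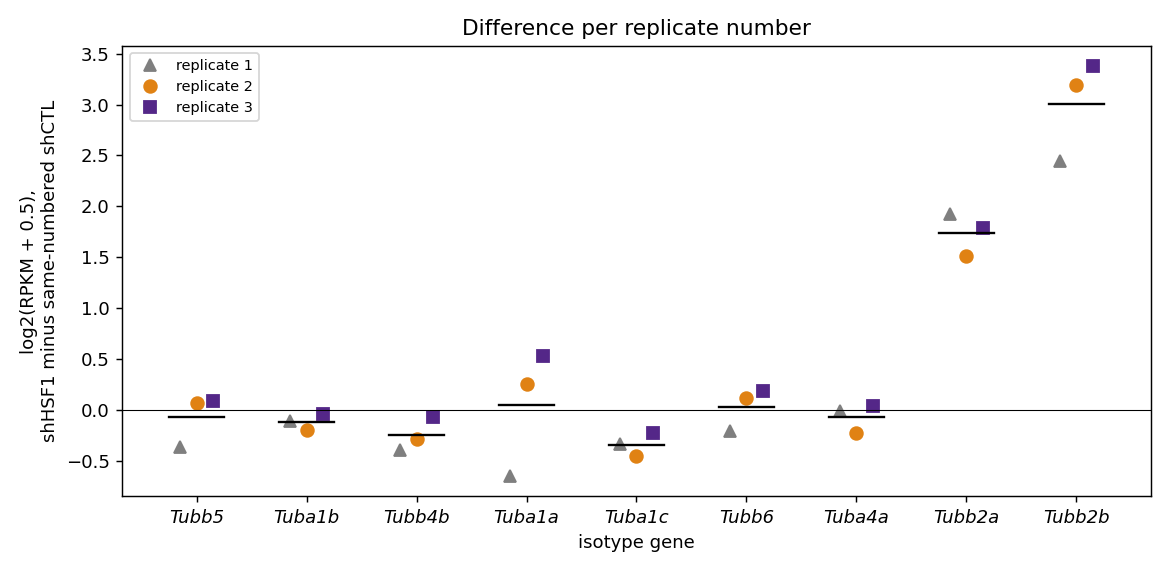
Difference in log2(RPKM + 0.5) between each shHSF1 library and the shCTL library of the same replicate number, for 9 isotype genes; black lines give the difference of the group means. Tubb2a and Tubb2b lie above 1 in all 3 pairs, and the other 7 genes lie between −0.65 and 0.53.

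The level of the family as a whole differed by replicate number more than by hairpin. Summed RPKM of the 10 isotypes was 894, 2219.6 and 2130.3 in shHSF1 libraries, against 1103, 2257 and 1993 in shCTL libraries. Both replicate 1 libraries lay below the other 4, whichever hairpin they carried. Group means were 1748 ± 741 RPKM in shHSF1 and 1784 ± 605 RPKM in shCTL (SD, n = 3 each). The replicate 1 libraries had between 0.328 and 0.668 of the mean level of the other 4 for the 9 members tested, lowest for Tubb6 and highest for Tubb2a. A list of 31 genes of G2/M and mitosis moved with them: its median log2 difference, replicate 1 libraries minus the others, was −1.27. Its part in the tubulin level was not tested.

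As a share of total tubulin, Tubb2a took 2.08%, 1.21% and 1.23% of the summed RPKM in shHSF1 libraries, against 0.411%, 0.403% and 0.361% in shCTL libraries. Tubb2b took 0.428%, 0.354% and 0.407% in shHSF1, against 0.0268%, 0.0184% and 0.0192% in shCTL. The highest share of both genes was in the library labelled shHSF1 replicate 1, where their level and the tubulin total were the lowest of the group. Together they held 1.90 ± 0.528% of tubulin mRNA in shHSF1 and 0.413 ± 0.0294% in shCTL (SD, n = 3 each), a difference of 1.49 percentage points. It was 1.2 points with replicate 1 of both groups left out. Tubulin mRNA was thus still made up almost wholly of the other isotypes in every library.

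The split within the pair also differed between the groups. Tubb2b made up 17.0%, 22.6% and 24.9% of the Tubb2a and Tubb2b sum in shHSF1 libraries, against 6.13%, 4.37% and 5.05% in shCTL libraries. The groups did not overlap. Tubb2a exceeded Tubb2b by 4.87-, 3.42- and 3.02-fold in shHSF1 libraries, and by 15.3-, 21.9- and 18.8-fold in shCTL libraries. The shCTL ratios rest on 14 to 20 Tubb2b reads per library and are the less precise.

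**Figure D3:**
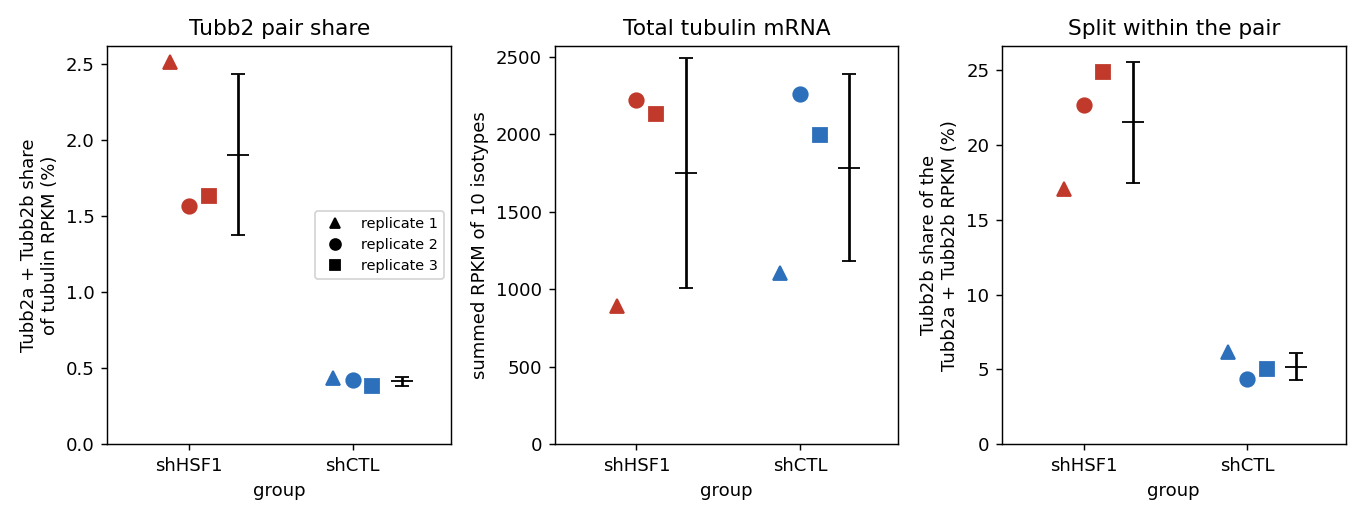
Share of tubulin RPKM held by Tubb2a and Tubb2b, summed RPKM of the 10 isotypes, and share of Tubb2b within the pair, for each shHSF1 and shCTL library; black bars give mean and SD of 3 libraries. The first and last panels separate the groups, while in the middle panel both replicate 1 libraries are low.

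The rest of the composition was stable in order. Tubb5 held 53.3%, 47.6% and 44.2% of tubulin RPKM in shHSF1 libraries, against 55.6%, 44.6% and 44.4% in shCTL libraries. Tubb5, Tuba1b and Tubb4b together held 76.3 ± 2.97% in shHSF1 and 78.3 ± 2.06% in shCTL (SD, n = 3 each). Members of the alpha class held 33.2 ± 4.30% in shHSF1 and 33.8 ± 5.16% in shCTL, with ratios of alpha to beta RPKM of 0.400, 0.517 and 0.588 in shHSF1 and 0.386, 0.575 and 0.588 in shCTL libraries. The ratio is of mRNA levels and says nothing of protein, and in both groups it was lowest in replicate 1.

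The shares of Tubb4b and Tuba1c were lower in shHSF1 without overlap, while their levels overlapped. No background over all genes was computed for shares within tubulin, so nothing is read from this separation. Tubb4b held 11.7%, 11.4% and 11.5% in shHSF1 libraries, against 12.5%, 13.6% and 12.9% in shCTL libraries. Tuba1c held 4.39%, 4.23% and 4.12% in shHSF1, against 4.51%, 5.69% and 5.16% in shCTL. The nearest Tuba1c values of the groups, 4.39% in shHSF1 and 4.51% in shCTL, lay close together, and the shares of the remaining 5 tested members overlapped. Shares sum to 100%, so they are not independent of each other. Group means differed by 1.49 points for Tubb2a and Tubb2b together, by −1.47 points for Tubb4b and by −0.87 points for Tuba1c. The cause of the lower shares was not tested.

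**Figure D4:**
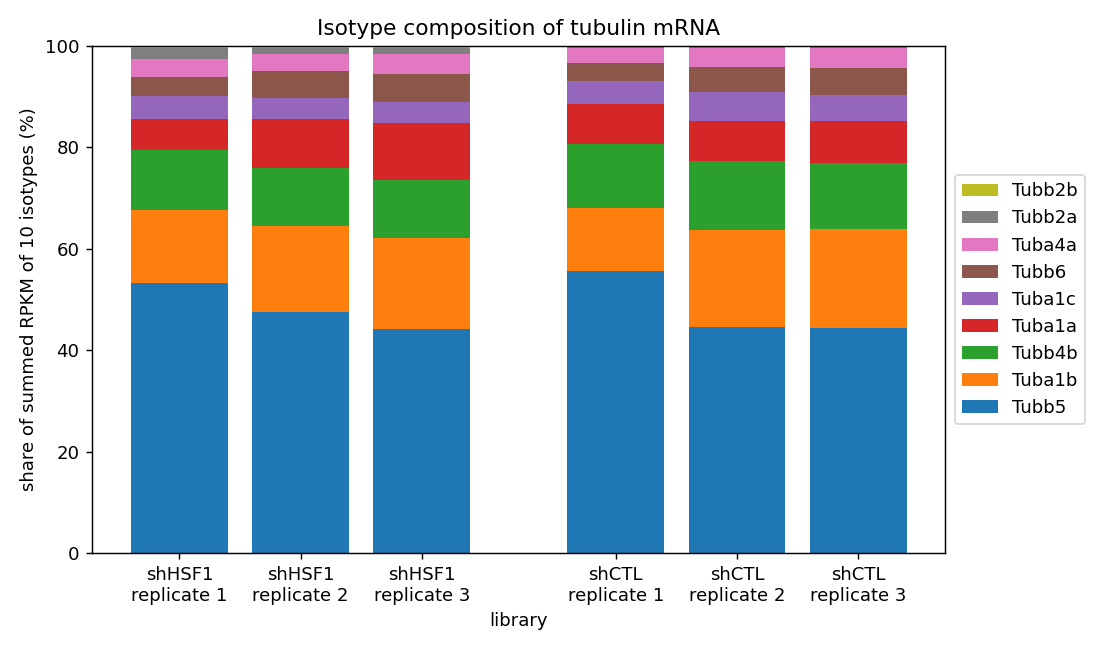
Share of each isotype in the summed RPKM of the 10 isotypes, stacked to 100% for each shHSF1 library and then each shCTL library; Tubb3 is too low to see. Tubb5 is the largest part in all 6 libraries, and Tubb2a and Tubb2b form a visible band at the top in shHSF1 libraries alone.

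The order of the members by mean level was the same in both groups but for a swap of Tubb6 and Tuba1c. In shHSF1 it ran Tubb5, Tuba1b, Tubb4b, Tuba1a, Tubb6, Tuba1c, Tuba4a, Tubb2a, Tubb2b and Tubb3. Neighbours from Tuba1b down to Tuba4a had overlapping ranges of mean ± 1 SD in both groups, while Tubb5, Tubb2a, Tubb2b and Tubb3 each lay apart from their neighbours. Tubb2a and Tubb2b thus kept ranks 8 and 9 in shHSF1 and in shCTL.

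Tubb2a lies at chr13:34074280-34078008 and Tubb2b at chr13:34127008-34130354 (mm10, both on the minus strand, 4 exons each), with 52.3 kb between their starts. Tuba1b (chr15:98931431-98934390, minus), Tuba1a (chr15:98949847-98953501, minus) and Tuba1c (chr15:99029891-99038105, plus) form a cluster. The other members lie alone: Tuba4a at chr1:75214974-75219253 (minus), Tubb3 at chr8:123411564-123422010 (plus), Tubb4b at chr2:25222158-25224702 (minus), Tubb5 at chr17:35833920-35838301 (minus) and Tubb6 at chr18:67390731-67402749 (plus). Exons of Tuba4a overlap those of Stk16 by 633 bases and exons of Tubb4b those of Fam166a by 124 bases, on opposite strands in both cases. No source used here states the strand setting of the counting, so reads of these overlapping genes may not be told apart. Within 100 kb of a member start lay 70 other genes, of which 47 were tested and 0 passed limma with or without the replicate block. Without both replicate 1 libraries 3 passed, where 11.1% of all genes did. In that fit Kmt2d was lower in shHSF1 (log2 difference −0.59), and Bphl (0.72) and Spire2 (0.52) were higher. On all 6 libraries the log2 differences of the 47 genes lay between −0.41 and 0.81. Around the Tubb2 genes, Bphl, a serine hydrolase, had a log2 difference of 0.51 (SE 0.43), Psmg4, a proteasome assembly chaperone, of 0.06 (SE 0.17), and Serpinb6a, a serine protease inhibitor, of −0.33 (SE 0.20). The fourth tested neighbour, Ripk1, a kinase of cell death signalling, had 12.7 RPKM on average in shHSF1 and in shCTL.

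Tubulin genes outside the member list were low. Tuba3a, Tuba3b, Tuba8, Tubal3 and Tubb1, isotypes of testis, muscle, platelets and other tissues, did not exceed 0.0408 RPKM in any library. Tubb4a, a brain isotype, averaged 2.05 ± 0.938 RPKM in shHSF1 and 1.86 ± 0.732 RPKM in shCTL (SD, n = 3 each). Tubd1 and Tube1, delta- and epsilon-tubulin of the centriole, averaged 3.0 ± 0.153 and 2.41 ± 0.170 RPKM in shHSF1, against 2.09 ± 0.674 and 1.64 ± 0.542 RPKM in shCTL. The groups overlapped for Tubd1 and not for Tube1, which had 2.58, 2.24 and 2.42 RPKM in shHSF1 libraries, against 1.01, 1.93 and 1.97 RPKM in shCTL libraries. Neither passed limma on all 6 libraries, and Tubd1 passed without both replicate 1 libraries (log2 difference 0.71, SE 0.13, adjusted p = 0.0311 by limma, range 0.0311 to 0.877 over the alternatives).

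Genes that act on tubulin and microtubules were taken from 9 lists of 169 genes, of which 142 were tested. None of the 142 passed limma on all 6 libraries, where 0.0263% of all genes did. An unadjusted limma p under 0.05 was reached by 14 of the 142, beside 1296 of all 11386 genes. Without both replicate 1 libraries 13 passed, where 11.1% of all genes did. Among them were Tubd1, Cct4, Cnot6, Mapt, Map7, Mid2, Mapre2, Slain1, Ttll1, Ttll3, Mad2l1 and Top2a. List medians of the log2 difference on all 6 libraries lay between −0.35 and 0.47, beside 0.05 over all genes.

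The folding machinery, through which new tubulin passes, had 21 tested genes with a median log2 difference of 0.07, 14 of them above 0. Cct4, a subunit of the cytosolic chaperonin that folds tubulin, had 327, 309 and 330.2 RPKM in shHSF1 libraries, against 264, 240.2 and 235 RPKM in shCTL libraries. It lay higher in every shHSF1 library and did not pass limma (log2 difference 0.39, SE 0.12, adjusted p = 0.307, range 0.0389 to 0.778 over the alternatives). Cct2, another subunit, averaged 377 ± 22.1 RPKM in shHSF1 and 302 ± 27.1 RPKM in shCTL (SD, n = 3 each). The gamma-tubulin ring complex, which nucleates microtubules, had 13 tested genes with a median of 0.12, among them Mzt1 at 24.5 ± 1.11 RPKM in shHSF1 and 19.3 ± 1.27 RPKM in shCTL, and Mzt2 at 10.8 ± 1.98 RPKM in shHSF1 and 8.01 ± 0.410 RPKM in shCTL.

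The autoregulation list, of TTC5, the adaptor it uses and CCR4-NOT subunits, had 12 tested genes with a median of 0.05. Cnot8, a deadenylase subunit, averaged 35.1 ± 1.69 RPKM in shHSF1 and 27.2 ± 2.35 RPKM in shCTL, and Cnot2, a scaffold subunit, 35.2 ± 1.87 RPKM in shHSF1 and 28.8 ± 0.882 RPKM in shCTL (SD, n = 3 each). The first 4 codons of all 6 beta members encode the same residues, in 5 different base sequences, and those of all 4 alpha members encode the same residues in 2. These first residues were thus the same in Tubb2a, Tubb2b and the other beta members. The part of this pathway in their levels was not tested.

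Stabilising and bundling proteins had 18 tested genes with a median of −0.05. Map2, a microtubule-bundling protein of dendrites, had 8.88, 9.96 and 9.42 RPKM in shHSF1 libraries, against 19.7, 16.5 and 12.3 RPKM in shCTL libraries. It was lower in every shHSF1 library and did not pass limma (log2 difference −0.72, SE 0.19, adjusted p = 0.238, range 0.0616 to 0.699 over the alternatives). Dclk2, a doublecortin-like kinase, averaged 1.04 ± 0.147 RPKM in shHSF1 and 1.80 ± 0.110 RPKM in shCTL. The list of destabilising and severing proteins, which also held microtubule-associated ubiquitin ligases, had 13 tested genes with a median near 0 (−0.002). One of these ligases, Mid2, averaged 3.96 ± 0.741 RPKM in shHSF1 and 1.86 ± 0.241 RPKM in shCTL (log2 difference 0.91, SE 0.20, adjusted p = 0.184 by limma, range 0.0238 to 0.646 over the alternatives). Katnal2, a katanin-like protein, averaged 2.40 ± 0.296 RPKM in shHSF1 and 3.89 ± 1.01 RPKM in shCTL.

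Plus-end tracking proteins had 17 tested genes with a median of 0.01. Slain1, which promotes plus-end growth, averaged 5.87 ± 1.35 RPKM in shHSF1 and 2.78 ± 0.547 RPKM in shCTL (log2 difference 0.95, SE 0.22, adjusted p = 0.205 by limma, range 0.0184 to 0.674 over the alternatives). Clip1, a plus-end linker, averaged 20.8 ± 0.540 RPKM in shHSF1 and 15.9 ± 1.73 RPKM in shCTL. Tubulin-modifying enzymes had 14 tested genes with a median of 0.19, 10 of them above 0. Ttll1, a polyglutamylase, averaged 7.88 ± 0.620 RPKM in shHSF1 and 5.90 ± 0.419 RPKM in shCTL, and Ttll12, a member of the same enzyme family, 19.1 ± 2.63 RPKM in shHSF1 and 14.5 ± 2.58 RPKM in shCTL (SD, n = 3 each).

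Genes of G2/M and mitosis had a median of −0.35, with 3 of 31 above 0 (Cdk1, Pbk and Top2a), and the pairs differed widely. Their median differences were −0.94, −0.14 and 0.02 for replicates 1, 2 and 3. Cenpf, a kinetochore protein, had 16.1, 46.5 and 38.5 RPKM in shHSF1 libraries, against 36.2, 66.4 and 49.4 RPKM in shCTL libraries. Nek2, a centrosomal kinase, had 20.4, 52.5 and 52.0 RPKM in shHSF1 libraries, against 45.7, 66.3 and 59.1 RPKM in shCTL libraries. Both were lower in shHSF1 in each pair and lowest in replicate 1 of each group, and neither passed limma.

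Among 11367 genes, 3 outside the tubulin family lay closest to the summed Tubb2a and Tubb2b level over the 6 libraries. Closeness was the root mean square gap between centred log2 profiles. The pseudocount was added to the compared genes and not to the sum, so the scales differ. The closest genes were Ifi47, an interferon-inducible GTPase, at 0.237, Akap12, a scaffold of protein kinase A, at 0.242, and Ubash3b, a phosphatase, at 0.246. The fourth gene lay at 0.253 and the median gene at 1.13, so no single gene stood apart from the next. Akap12 had 12.9, 26.6 and 28.8 RPKM in shHSF1 libraries, against 3.26, 5.96 and 7.24 RPKM in shCTL libraries. Ifi47 averaged 5.39 ± 1.58 RPKM in shHSF1 and 0.599 ± 0.235 RPKM in shCTL, and Ubash3b 5.30 ± 1.52 RPKM in shHSF1 and 1.15 ± 0.616 RPKM in shCTL (SD, n = 3 each). A pseudocount narrows differences most at low levels, and Ifi47 had 0.343, 0.648 and 0.805 RPKM in shCTL replicates 1, 2 and 3. The ranking on a common scale was not computed, so nothing is read from the order of these genes. Likeness over 6 libraries describes these libraries and carries no test.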

How the data were processed

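Polyadenylated RNA libraries were made from total RNA with a KAPA kit, per the labels' protocols. STAR, featureCounts and the build mm10 are named in the submitters' processing notes, and the sources used here state no versions, annotation, strand setting or handling of shared reads. The authors deposited RPKM for 24421 genes. Scaled back by gene length and library size, 100% of the values were whole reads to a tolerance of 0.001.

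Sample titles gave the group and replicate number of each library. The test was run with limma (version 3.58.1, R 4.3.3) on log2(RPKM + 0.5), for the 11386 genes that reached 0.5 RPKM in 3 of the 6 libraries, shHSF1 minus shCTL, without a block and with Benjamini-Hochberg adjustment at 0.05. The labels do not say that replicates are separate cultures, so a p-value reflects the spread among these libraries only, and that spread may be technical. Across genes, the deviations of same-numbered libraries from their group means correlated at 0.582, 0.181 and 0.679, all above 0.1. On that ground the numbers were used for the same-numbered differences and as a block in an alternative fit. The main fit and its standard errors ignore them: for Tuba1b the SE was 0.58 without the block and 0.08 with it. What a shared number stands for is not stated. Numbers 2 and 3 did not tell pairs apart, since shHSF1 replicate 2 correlated at 0.241 with shCTL replicate 3, above its own number, and shHSF1 replicate 3 at 0.509 with shCTL replicate 2.

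Shares are a gene's RPKM over the sum for the 10 members. Transcripts were compared in Python 3.11.15 with Biopython 1.88, from GENCODE M21 and RefSeq tables; tables used pandas 2.3.3 and numpy 2.4.6, and figures matplotlib 3.10.9. The code was tested on simulated data. The members and gene lists were chosen with earlier results of these data known. Named were the 10 members, the other tubulin genes, up to 3 genes of each list that passed (if none did, the 2 of smallest unadjusted p), neighbours within 100 kb past the test, and the 3 closest profiles. Genes called without both replicate 1 libraries, Cd74, Ly6e, Cadps2, Cdk1, Pbk, Top2a, Bphl, Psmg4, Serpinb6a, Ripk1 and single marker genes were named after their values were seen. Alternatives were other pseudocounts, filters, scalings and denominators, no variance trend, the replicate block, voom on the whole reads and each library left out. Replicate 1 as a batch covariate was added after seeing the data. The human and single-cell data that the series mentions were not analysed here. Some genes of the marker and pathway lists are not reported here by name.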

Additional observations from a re-analysis of the deposited data

How the results depend on the processing

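Over the 16 alternatives run on each gene, log2 differences were 1.49 to 1.95 for Tubb2a and 2.45 to 4.14 for Tubb2b. Both genes were chosen on this contrast and their groups did not overlap, so the constant sign adds no support. The filters, the variance trend, the replicate block and the batch covariate left both differences unchanged, as they cannot move them. The Tubb2b value was 3.81 with a pseudocount of 0.1, 2.45 with a pseudocount of 1 and 4.14 with voom on the whole reads. The joint share difference of Tubb2a and Tubb2b ran from 1.17 points (shares of reads) to 2.20 points (share of the beta class). The other 7 tested members changed sign when single libraries were left out; Tuba1a ran from −0.33 to 0.72. Genes past limma, 3 on all 6 libraries, came to 18 with no filter, 22 without the variance trend, 11 with voom, 20 with the replicate block, and 0 to 8 with each library left out. Without both replicate 1 libraries they came to 1262, and with replicate 1 as a batch covariate, chosen after seeing the data, to 642. Of the pathway genes, 13 and 8 passed in these last fits and 0 with the replicate block. The cause was not tested. The main limits are the low Tubb2b count in shCTL, sequence shared among members and with other genes, and 3 libraries per group with replicate 1 apart.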
